A study of Mus musculus with 16 samples.

Results

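The gain of GFP+ enrichment with an odor was measured as a difference of differences. For each pool of mice, the signal in GFP-negative (GFP-) cells was subtracted from the signal in GFP-positive (GFP+) cells, which gave the pool's GFP+ enrichment, and the enrichments of the 4 odor pools were then compared with those of the 4 vehicle pools. All 16 arrays of the series entered the comparison, which ran over 22206 of the 28846 entries of the table, namely all probe sets other than controls, and 1080 of these measure odorant receptors. The cells were sorted by fluorescence from dissociated olfactory mucosa of S100a5-tauGFP mice, 24 animals of both sexes aged 7 to 12 weeks, which were combined in pools of 3. Every mouse carried the reporter, spent 40 h alone in a chamber with clean air flowing at 3.1 L/min, and from 26 h on received 10 s pulses every 20 min, of 1-pentanethiol for the odor pools and of filtered air for the vehicle pools. The sample labels and the series title name 1-pentanethiol, a thiol with a strong smell, whereas the series' design text names bourgeonal, an aldehyde, and the sample labels were followed. Because animals were pooled, the spread between pools does not show the spread between mice.

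Each olfactory sensory neuron mainly transcribes a single allele of a single odorant receptor gene, and the receptor it makes decides which odorants activate it. The amount of S100a5 transcript, for a protein that binds calcium, follows the activity of these neurons, so tauGFP made with it labels those that have recently fired. When an odor is present, neurons with a receptor for it pass from the unlabelled into the labelled cells, and the transcript of that receptor moves with them. This is the principle of the Kentucky assay named in the series title.

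The arrays had similar signal. The median over the tested probe sets ran from 7.40 to 7.46 on the GFP+ arrays of the odor pools, against 7.38 to 7.44 on the GFP+ arrays of the vehicle pools, and from 7.72 to 7.78 on the GFP- arrays of the odor pools, against 7.74 to 7.78 on those of the vehicle pools (log2 signal). Omp, a marker of mature olfactory sensory neurons, had 18.32 to 18.38 on the odor GFP+ arrays and 18.21 to 18.41 on the vehicle GFP+ arrays, and it was as bright in both GFP- groups, with 18.30 to 18.33 in odor pools and 18.14 to 18.34 in vehicle pools. Omp was thus near the top of the scale in both fractions with either stimulus. The median of the negative controls was 7.28 on the GFP+ array of vehicle pool 2, which stood apart from the range of 5.99 to 6.48 on the other arrays. The median receptor's enrichment, taken as the difference of the array medians, averaged 0.06 ± 0.19 in the odor pools and 0.23 ± 0.22 in the vehicle pools (SD, n = 4 each, exact permutation test, two-sided p = 0.229, and 0.0286 is the smallest p that 4 against 4 pools allow).

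The gene behind the reporter served as a check of the sort. Cells were sorted on this reporter, so a positive enrichment of its gene says nothing about the odor. In odor pools 1 to 4 the enrichment of S100a5 was 0.75, 0.93, 1.30 and 0.99, against 0.76, 0.74, 0.97 and 1.01 in vehicle pools 1 to 4 (log2). It was positive in all 8 pools, and the 2 stimuli overlapped, with a gain of 0.12 ± 0.18 (SE, limma adjusted p = 0.983). By fraction, S100a5 was higher with the odor by 0.436 in GFP+ cells and 0.313 in GFP- cells, and neither difference passed.

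With the odor, 14 probe sets gained GFP+ enrichment past an adjusted p of 0.05 in limma, all of them odorant receptors, and none lost it. The background is 0.063% of the 22206 tested probe sets called higher and 0% called lower. At an unadjusted p under 0.05, 771 probe sets (3.47%) were higher and 451 (2.03%) lower. Among the 21126 probe sets of other genes, limma called 0 at the adjusted threshold, with 691 higher and 360 lower at the unadjusted one. The 14 receptors are 1.3% of the 1080 measured, and 10 probe sets passed when vehicle pool 2 was left out. Their gains ran from 1.99 to 5.42 on the log2 scale, 3.97-fold to 42.9-fold, beside a median of -0.17 over all receptors and 0.01 over all tested probe sets. The pools did not overlap for any of the 14, against 1.85% of all tested probe sets whose odor pools all lay above their vehicle pools. The calls were made from the same pool differences, so this is a description. These receptors belong to 9 families of the MOR nomenclature, which groups mouse receptors by sequence, and lie on 4 chromosomes.

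**Figure D1:**
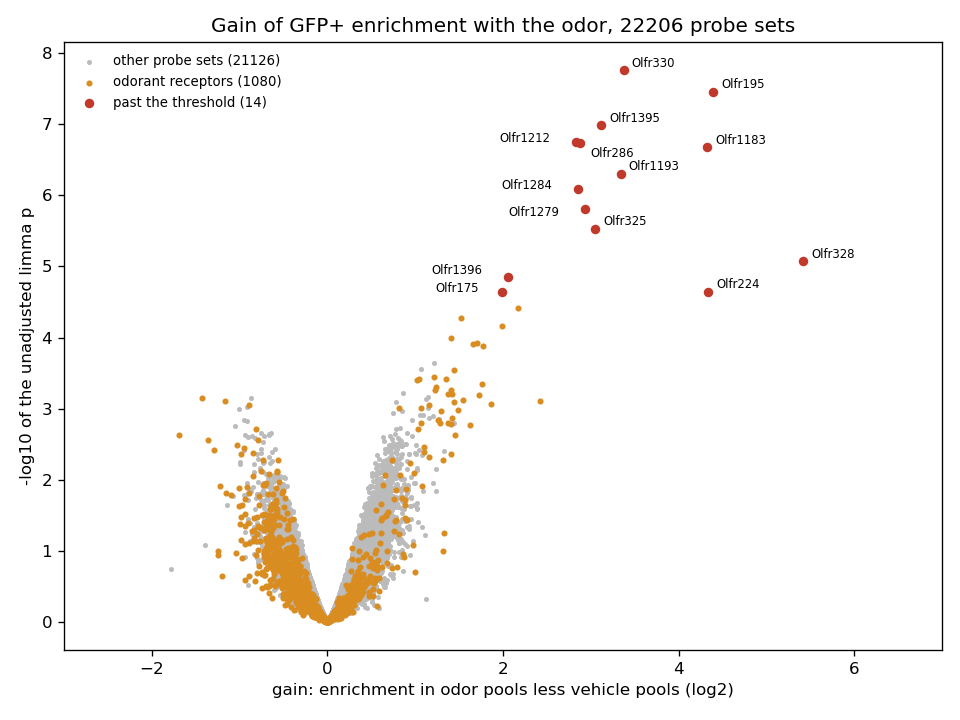
The gain of each of the 22206 probe sets (x axis, log2, odor pools less vehicle pools) is plotted against the -log10 of its unadjusted limma p (y axis), with odorant receptors in orange, other probe sets in grey and the 14 past the threshold in red. The 14 red points lie at gains of 1.99 to 5.42, and no point lies as high on the side of loss.

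**Figure D2:**
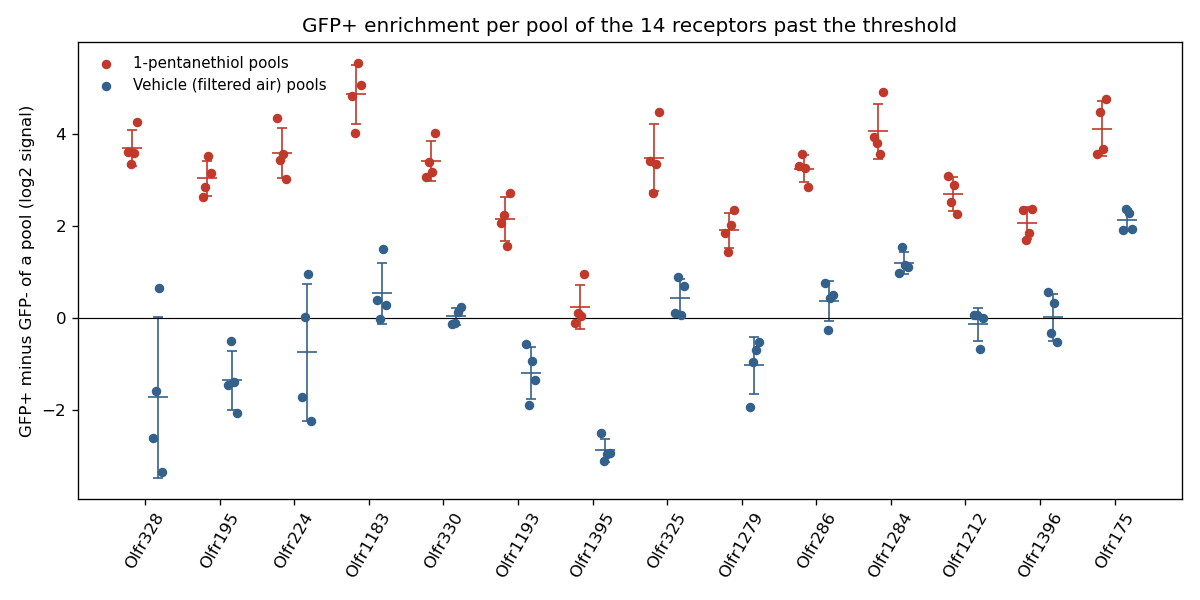
GFP+ minus GFP- (y axis, log2 signal) is drawn for each pool for the 14 receptors past the threshold (x axis, ordered by gain), with odor pools in red on the left and vehicle pools in blue on the right, and bars for the mean ± SD of 4 pools. The groups do not overlap for any of the 14, and the vehicle pools of Olfr328 and Olfr224 spread widest.

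The receptors of family MOR275, which sit side by side on chromosome 11, held 4 of the 14. For none of these receptors is an odor ligand given in the sources used here. Olfr328 (MOR275-2) had enrichments of 3.60, 3.33, 3.58 and 4.25 in odor pools 1 to 4, against -2.62, -1.60, 0.65 and -3.36 in vehicle pools 1 to 4. Its transcript was on the GFP+ side in every odor pool, and on the GFP- side in every vehicle pool but the third. The gain was 5.42 ± 0.69 (SE, 42.9-fold, limma adjusted p = 0.0172).

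Its neighbour Olfr224 (MOR275-3) behaved alike. The enrichments were 4.33, 3.43, 3.55 and 3.02 in odor pools 1 to 4, against -1.73, 0.02, 0.94 and -2.24 in vehicle pools 1 to 4, a gain of 4.34 ± 0.61 (limma adjusted p = 0.0361). Vehicle pools 1 and 4 lay well below 0 and pool 3 above it, as for Olfr328. The adjusted p of Olfr328 rose past the threshold without any 1 of the odor pools or without vehicle pool 1 or 2 (0.056 to 0.124), with gains of 5.13 to 5.54 in those fits. That of Olfr224 did so without any 1 of the odor pools or vehicle pool 1, 2 or 4 (0.0665 to 0.143), with gains of 3.84 to 4.59.

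Olfr330 (MOR275-1) had the smallest unadjusted p of all probe sets. Its enrichment was 3.06, 3.38, 3.16 and 4.01 in odor pools 1 to 4, against -0.13, -0.12, 0.12 and 0.24 in vehicle pools 1 to 4. Without the odor the transcript was thus spread evenly over both fractions, and the gain of 3.37 ± 0.23 (10.4-fold, limma adjusted p = 0.000388) stands beside an SD of 0.43 in odor pools and 0.18 in vehicle pools. Olfr325 (MOR275-5) had 3.41, 2.72, 3.33 and 4.46 in the odor pools, against 0.10, 0.89, 0.05 and 0.68 in the vehicle pools. All 4 odor values lay far above the vehicle values, and the gain was 3.05 ± 0.35 (limma adjusted p = 0.00653).

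The other MOR275 members were short of the threshold and are given as values. Olfr329 (MOR275-6P, annotated as a pseudogene by its name) had 3.41, 3.75, 3.82 and 4.34 in the odor pools, against 2.60, 1.79, 1.66 and 2.65 in the vehicle pools (gain 1.66 ± 0.28, limma adjusted p = 0.138). Olfr331 (MOR275-4) had 1.89, 1.37, 1.82 and 1.36 in the odor pools, against 0.32, 1.02, 0.32 and -0.11 in the vehicle pools (gain 1.22 ± 0.25, adjusted p = 0.382). Their pools did not overlap either, and Olfr329 was already enriched without the odor. Of the 120 families with at least 3 measured members, MOR275 was the only family with all members non-overlapping in this direction, 6 of 6 (background 1.85%), with a median gain of 3.21. Of these members 4 had been called from the same pool differences, so the count and the median are a description. Close paralogs may share probe target sequence, and cross-hybridisation between them was not tested.

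For Olfr224 and Olfr330, RefSeq gene models are longer than 1100 bases. The window from 250 bases before to 50 after the start was therefore taken as a promoter. Whether the models extend before the coding exon was not checked. Both windows are shown because these neighbours gained together. Olfr286 of chromosome 15, described further on, is shown beside them as the other receptor past the threshold with a long model and a match. Capitals mark matches to CCCNNGGG, a form of the site of Ebf factors, or to CCCNNNGGG, a looser pattern with a longer spacer. Whether Ebf factors bind the longer spacing was not tested. Capitals also mark TAATTA or TAATGA, a form of the site of homeodomain factors such as Lhx2. Both strands were searched. Ebf and homeodomain sites are known from odorant receptor promoters. The windows are on the minus strand of GRCm38.p6 at chr11:58570519-58570818, chr11:58534776-58535075 and chr15:98234401-98234700 and are written 5′ to 3′.
Olfr224: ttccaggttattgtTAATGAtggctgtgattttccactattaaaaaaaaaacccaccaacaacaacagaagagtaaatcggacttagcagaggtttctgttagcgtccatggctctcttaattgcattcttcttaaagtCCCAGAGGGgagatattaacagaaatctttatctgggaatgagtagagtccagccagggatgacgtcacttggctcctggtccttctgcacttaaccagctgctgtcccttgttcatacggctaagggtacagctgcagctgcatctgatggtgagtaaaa
Olfr330: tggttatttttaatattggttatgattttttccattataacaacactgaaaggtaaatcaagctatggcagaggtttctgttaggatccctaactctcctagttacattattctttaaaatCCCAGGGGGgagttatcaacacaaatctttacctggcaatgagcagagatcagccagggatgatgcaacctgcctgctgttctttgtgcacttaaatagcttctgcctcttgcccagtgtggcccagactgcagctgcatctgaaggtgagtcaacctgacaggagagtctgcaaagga
Olfr286: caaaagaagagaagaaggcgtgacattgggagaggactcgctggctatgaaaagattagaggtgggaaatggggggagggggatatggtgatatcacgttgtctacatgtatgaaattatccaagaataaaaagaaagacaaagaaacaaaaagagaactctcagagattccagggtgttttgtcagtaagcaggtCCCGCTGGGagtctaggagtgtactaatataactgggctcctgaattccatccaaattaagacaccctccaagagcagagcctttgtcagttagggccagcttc
The match to these CCC and GGG patterns is CCCAGAGGG in Olfr224, 111 bases before the start, and CCCAGGGGG in Olfr330, 129 bases before it. In Olfr286 it is CCCGCTGGG, 54 bases before the start. Olfr330's letters match both spacings, which overlap, while those of Olfr224 and Olfr286 match only the longer one. Olfr224 also holds TAATGA, 236 bases before the start. The Olfr224 and Olfr330 windows were identical at 66.8% of aligned columns, within a range of 49.4% to 92.6% over all pairs of MOR275 windows. Of the 172 measured receptors with a gene model over 1100 bases, 16.3% hold CCCNNGGG or CCCNNNGGG in this window, and 9.88% hold CCCNNGGG. Among genes other than receptors these shares are higher, at 19.8% and 13.8%. A homeodomain-type match is in 45.3% of the 172 and in 13.2% of the genes other than receptors. Olfr175 on chromosome 16, past the threshold too, has a long model and holds neither. A match describes letters and not a bound site.

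At another place on chromosome 11, 2 adjacent receptors gained. Olfr1395 (MOR277-1) had -0.12, 0.11, 0.03 and 0.94 in odor pools 1 to 4, against -2.51, -3.11, -2.97 and -2.94 in vehicle pools 1 to 4. It is the only one of the 14 that was not enriched in GFP+ cells in all odor pools: it was strongly on the GFP- side in filtered air and about evenly spread with the odor. Its gain was 3.12 ± 0.25 (8.70-fold, limma adjusted p = 0.000773). Next to it, Olfr1396 (MOR276-2) had 2.34, 1.69, 1.84 and 2.37 in the odor pools, against 0.56, -0.33, 0.31 and -0.52 in the vehicle pools. All odor pools were clearly above all vehicle pools, which lay around 0, and the gain was 2.05 ± 0.28 (limma adjusted p = 0.0263). It was short of the threshold without any 1 of the odor pools or of vehicle pools 2, 3 and 4 (gain 1.88 to 2.18, adjusted p 0.0562 to 0.124).

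On the other side of Olfr1395 lies Olfr1394 (MOR280-1), with 3.67, 3.51, 1.50 and 4.01 in the odor pools, against 0.41, 0.17, 1.78 and 0.65 in the vehicle pools. Odor pool 3 lay below vehicle pool 3, so the groups overlapped, and the gain of 2.42 ± 0.52 did not pass (limma adjusted p = 0.399). Without odor pool 3 it was 2.98 (adjusted p = 0.0283). The level of Olfr1394 in the GFP- cells of the odor pools averaged 5.53, under the mean negative control median of 6.08 there.

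Chromosome 2 carried 5 of the 14 in its large receptor clusters. Olfr1183 (MOR230-6) had the highest enrichment with the odor of all 14: 4.82, 4.01, 5.53 and 5.05 in odor pools 1 to 4, against 0.39, -0.02, 1.49 and 0.27 in vehicle pools 1 to 4. The groups were far apart, and the gain was 4.32 ± 0.37 (20.0-fold, limma adjusted p = 0.000783). Olfr1193 (MOR226-1) had 2.05, 2.24, 1.56 and 2.72 in the odor pools, against -0.57, -1.89, -0.95 and -1.36 in the vehicle pools. Every odor pool had it on the GFP+ side and every vehicle pool on the GFP- side, with a gain of 3.34 ± 0.31 (limma adjusted p = 0.00159), and it was the brightest of the 14, with a mean of 16.06 in odor GFP+ cells. Olfr1212 (MOR233-17) had 3.08, 2.52, 2.88 and 2.26 in the odor pools, against 0.05, 0.05, -0.67 and -0.01 in the vehicle pools. Its vehicle values were near 0 except in pool 3, and the gain was 2.83 ± 0.24 (limma adjusted p = 0.000783).

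These 3 bound a run of 21 measured receptors in gene order, from Olfr1183 to Olfr1212, of which 19 had a positive gain and 12 had pools that did not overlap (background 1.85%). The ends of the run were set by the receptors past the threshold, so its counts are a description. In the other 199 receptors of the same cluster 8 did not overlap in this direction, and their median gain was -0.11, beside 1.32 within the run. All 8 measured members of family MOR230 are in it. Of these, Olfr1183 passed, 6 had pools that did not overlap, and the median gain was 1.63. Olfr1186 (MOR230-5) had 1.46, 1.01, 0.93 and 2.10 in odor pools, against -0.34, -0.33, -1.41 and -0.41 in vehicle pools (gain 2.00 ± 0.32, limma adjusted p = 0.089), and the groups were apart. The lowest member was Olfr1201, with a gain of 0.18 ± 0.41.

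The remaining chromosome 2 pair belongs to family MOR245. Olfr1284 (MOR245-13) had 3.92, 3.80, 3.56 and 4.91 in odor pools 1 to 4, against 0.98, 1.54, 1.15 and 1.11 in vehicle pools 1 to 4, and was thus enriched in GFP+ cells with either stimulus. Its gain was 2.85 ± 0.28 (limma adjusted p = 0.00229). Olfr1279 (MOR245-12) had 1.83, 1.43, 2.01 and 2.33 in the odor pools, against -1.94, -0.97, -0.71 and -0.53 in the vehicle pools, which again lay on opposite sides of 0 (gain 2.94 ± 0.31, limma adjusted p = 0.00389). It is the dimmest of the 14: its level averaged 7.45 in odor GFP+ cells and 5.08 in vehicle GFP+ cells, where the mean negative control medians were 6.36 and 6.55. In GFP- cells it averaged 5.55 with the odor and 6.12 with vehicle, beside 6.08 and 6.06. Its vehicle enrichments thus compare signals near or below the negative control level. Of the 22 measured members of the family 2 passed, and the median gain was -0.30.

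Chromosome 16 held 2 receptors of family MOR184. Olfr195 (MOR184-5) had 2.63, 2.84, 3.51 and 3.14 in odor pools 1 to 4, against -1.46, -0.51, -1.40 and -2.08 in vehicle pools 1 to 4. It lay on the GFP- side in every vehicle pool and on the GFP+ side in every odor pool, with a gain of 4.40 ± 0.32 (21.1-fold, limma adjusted p = 0.000391). Olfr175 (MOR184-1) had 3.55, 4.47, 3.66 and 4.75 in the odor pools, against 1.91, 2.36, 2.28 and 1.93 in the vehicle pools. Of the 14 it was the most enriched in filtered air and had the smallest gain, 1.99 ± 0.28 (3.97-fold, limma adjusted p = 0.0361). It is also the call that rests most on the settings: it was lost without odor pool 2, 3 or 4 or any 1 of the vehicle pools (gain 1.77 to 2.14, adjusted p 0.0608 to 0.154). Between Olfr175 and Olfr195, counted with both, lie 13 measured receptors, of which 11 had a positive gain and 6, these 2 among them, did not overlap (background 1.85%). In the other 12 receptors of the cluster 1 did not overlap, and their median gain was -0.21. As these ends were set by the receptors past the threshold, the counts are a description. MOR184 had 8 measured members and a median gain of 0.34.

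Olfr286 (MOR286-2) stood alone on chromosome 15. It had 3.29, 3.55, 3.26 and 2.84 in odor pools 1 to 4, against 0.76, -0.26, 0.43 and 0.49 in vehicle pools 1 to 4, a gain of 2.88 ± 0.25 (7.35-fold, limma adjusted p = 0.000783). The odor pools were all above 2 and the vehicle pools all below 1. The 5 measured receptors nearest to it had gains of 0.01 to 0.37, and none of their pools were apart.

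**Figure D3:**
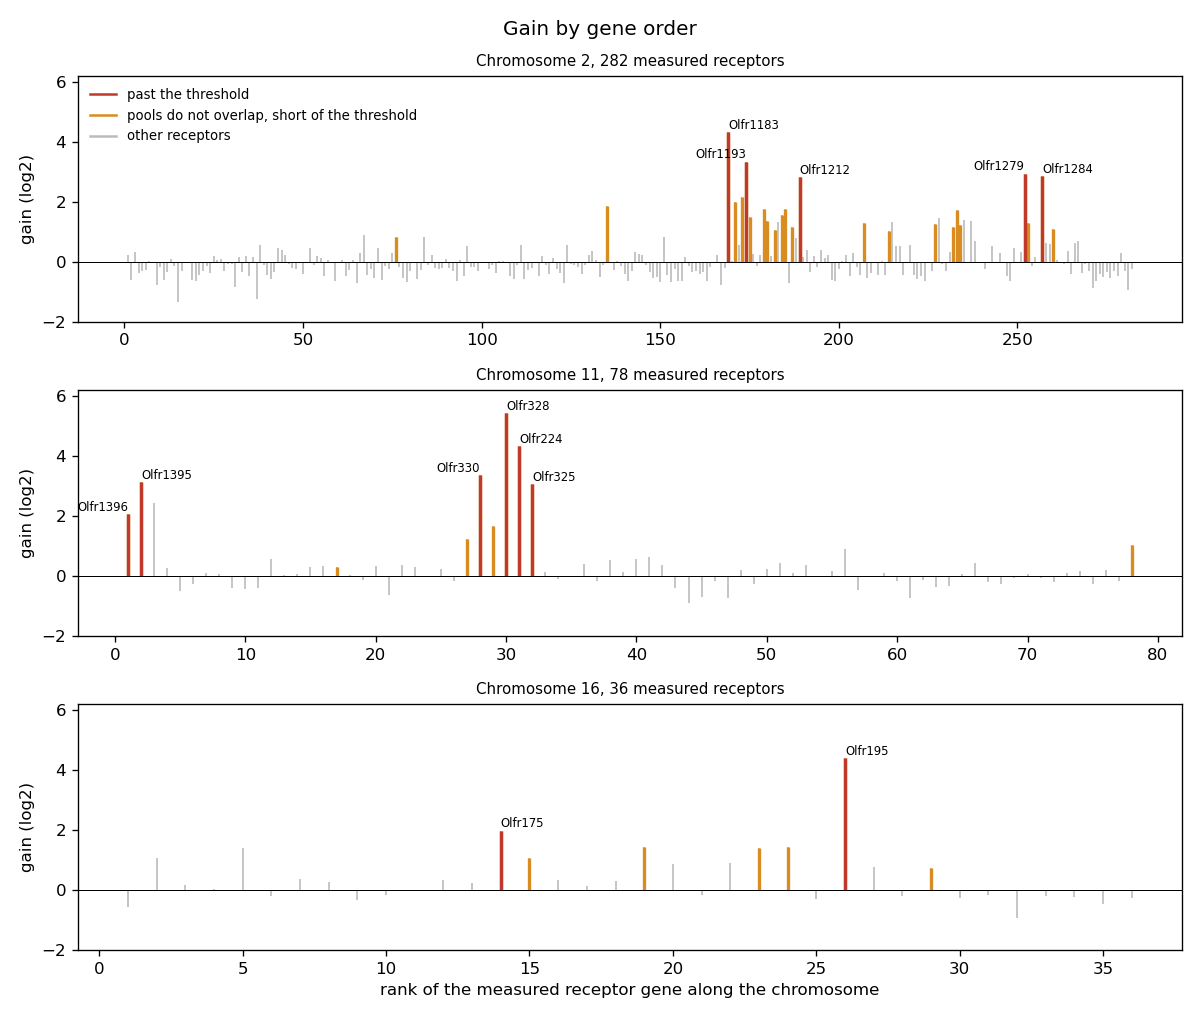
The gain (y axis, log2) of every measured receptor is drawn in gene order (x axis, rank along the chromosome) for chromosomes 2, 11 and 16, with receptors past the threshold in red and those whose pools did not overlap but fell short in orange. Red bars stand among orange ones between Olfr1183 and Olfr1212 on chromosome 2 and in the MOR275 group on chromosome 11, and most other bars lie within 1 of 0.

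The gain can come from more signal in GFP+ cells, less signal in GFP- cells, or both. In all 14 receptors the odor mean was higher in GFP+ cells and lower in GFP- cells. In such bulk RNA, fewer neurons with a receptor and less receptor RNA per neuron cannot be told apart. The GFP- part was larger in 8 receptors and the GFP+ part in 6, and the median difference of odor from vehicle was 1.19 in GFP+ cells and -1.81 in GFP- cells, beside -0.05 and 0.10 over all 1080 receptors. In separate limma fits of the fractions, 3 of the 14 passed in GFP+ cells (background 0.027% higher) and 9 passed as lower in GFP- cells (background 0.054%), with 0 in both. These fits share their arrays with the gain and are shown beside it as a description.

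The extremes show both forms. Olfr1183 had 11.87, 11.51, 11.11 and 11.36 in the GFP+ cells of odor pools, against 11.49, 10.28, 12.38 and 11.05 in those of vehicle pools, a difference of 0.16 (limma adjusted p = 0.995). In GFP- cells it had 7.05, 7.50, 5.58 and 6.30 with the odor, against 11.10, 10.30, 10.89 and 10.78 with vehicle, a difference of -4.16 (limma adjusted p = 0.00229). Its GFP+ values overlapped, while its GFP- values with the odor lay close to the negative control level of 6.08. Olfr1284 had the same form, with 0.24 in GFP+ cells (adjusted p = 0.980) and -2.61 in GFP- cells (limma adjusted p = 0.00229).

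Olfr1395 was the opposite. In GFP+ cells it had 14.14, 14.02, 13.89 and 14.72 in odor pools, against 11.96, 11.01, 11.24 and 11.72 in vehicle pools, a difference of 2.71 (limma adjusted p = 0.00223). In GFP- cells it had 14.26, 13.91, 13.86 and 13.78, against 14.48, 14.12, 14.21 and 14.66, a difference of -0.41 (adjusted p = 1.00). The GFP+ groups were well apart and the GFP- groups close together. Olfr195 and Olfr1279 also passed in GFP+ cells, by 3.10 and 2.37 (limma adjusted p = 0.0102 and 0.00223). Olfr328 was lower with the odor in GFP- cells, with a difference of -2.25 (limma adjusted p = 0.0481), and its difference of 3.17 in GFP+ cells did not pass (adjusted p = 0.220).

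**Figure D4:**
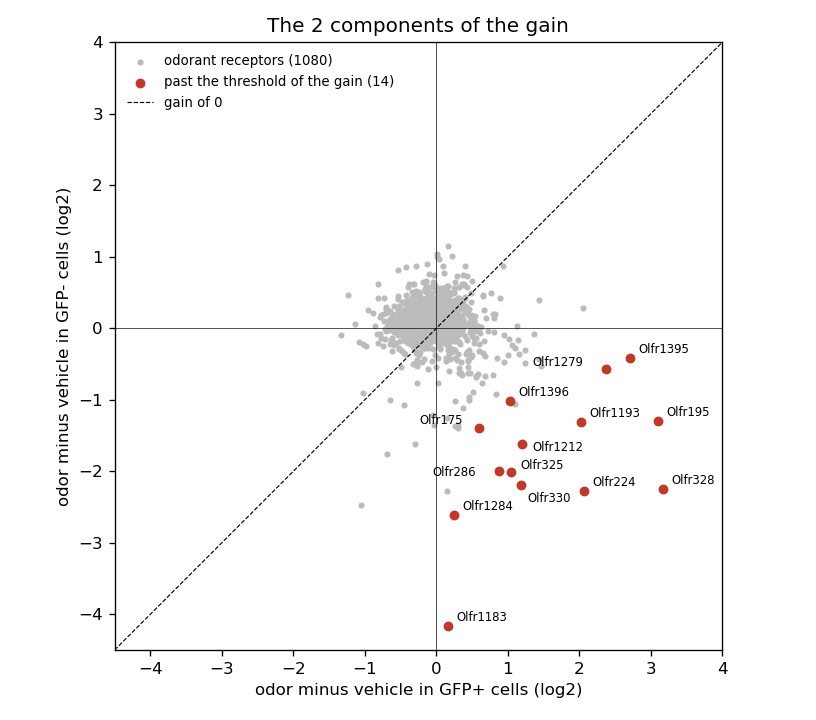
For each of the 1080 receptors (grey) and the 14 past the threshold (red) the odor minus vehicle difference in GFP+ cells (x axis, log2) is plotted against that in GFP- cells (y axis, log2), and the dashed diagonal marks a gain of 0. All 14 red points lie at the lower right, from Olfr1183 (0.16 and -4.16) to Olfr1395 (2.71 and -0.41).

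Several receptors were close to the threshold. Olfr1189 (MOR237-2), inside the chromosome 2 run, had 1.94, 1.94, 2.17 and 3.01 in odor pools, against 0.43, -0.76, 0.24 and 0.47 in vehicle pools (gain 2.17 ± 0.32, limma adjusted p = 0.0561). Olfr31 (MOR274-1) on chromosome 14 had 1.65, 1.48, 2.34 and 1.64 in odor pools, against 0.67, 0.30, 0.13 and -0.07 in vehicle pools (gain 1.52 ± 0.24, adjusted p = 0.0747). In both, the groups were apart. The others among the 10 next by p were Olfr1186, Olfr191, Olfr491, Olfr329, Olfr1206 and Olfr193 and, outside the receptors, Slc52a3, a riboflavin transporter gene, and Tulp1, a tubby family gene. Slc52a3 had a gain of 1.21 ± 0.22 (adjusted p = 0.227) and Tulp1 of 1.07 ± 0.20 (limma adjusted p = 0.266). The mean levels of Slc52a3 and Tulp1, 6.005 and 4.692, lay below the negative control median of 6.17 over all arrays. The gains of these genes thus compare signals near or below the negative control level.

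Most receptors had a gain below 0. Of the 1080, 370 had a positive gain, 57 had odor pools wholly above the vehicle pools (5.28%, against 1.85% of all tested) and 30 wholly below (2.78%, against 1.46%). Beyond a size of 1 on the log2 scale, 58 receptors were higher and 15 lower. Class I receptors, the class clustered on chromosome 7, had 0 of 120 members past the threshold in limma. Their median gain was -0.37, beside -0.14 over the 941 class II receptors. The median class I enrichment was 0.29, 0.35, 0.07 and -0.0 in odor pools 1 to 4. In vehicle pools 1 to 4 it was 0.66, 0.18, 0.73 and 0.26, so the groups overlapped. The 120 receptors share the same pools, so their counts are a description. At an unadjusted limma p under 0.05, 2 of the 120 were higher and 13 lower, against 78 and 78 of the 941. Over all tested probe sets the shares were 3.47% higher and 2.03% lower. Only 15 class I receptors had a positive gain. Setting receptor medians equal on all arrays adds 0.17 to the median gain of all probe sets, and the class I median is then -0.21. On chromosome 7 as a whole 3 of 230 receptors did not overlap in the direction of gain, and on chromosome 9 it was 0 of 129, with 0 past the threshold on either.

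The most negative gains by p did not pass. Olfr605 had -1.43 and Olfr703 -1.16, and the zinc finger gene Zfp738 had -0.87 (limma adjusted p = 0.399 for each). Olfr312 had -0.89 (limma adjusted p = 0.411).

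Receptors with a known ligand were read as a separate list of 9, with 0 past the threshold in limma and a median gain of -0.24. At an unadjusted limma p under 0.05, 1 was higher, beside 3.47% of all tested probe sets. Olfr1509 (MOR244-3), which responds to the sulfur odorant (methylthio)methanethiol, had 2.17, 3.13, 2.56 and 4.22 in odor pools, against 2.72, 2.43, 2.17 and 2.80 in vehicle pools. It was strongly enriched with both stimuli and the groups overlapped (gain 0.49 ± 0.38, limma adjusted p = 0.962). Olfr15 (MOR256-17) had 3.70, 4.20, 2.55 and 4.34 in odor pools, against 2.86, 2.42, 2.33 and 2.88 in vehicle pools (gain 1.07 ± 0.36, adjusted p = 0.803), with odor pool 3 inside the vehicle range.

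Genes known to respond to activity were short of the threshold. Camk2n1, which encodes an inhibitor of CaM kinase II, had the highest gain outside the receptors: its enrichment was -0.15, 1.40, 1.05 and 1.56 in odor pools 1 to 4, against -0.71, -0.68, -0.44 and -0.06 in vehicle pools 1 to 4. Odor pool 1 lay within the vehicle range, and the gain of 1.44 ± 0.34 did not pass (limma adjusted p = 0.498). Without odor pool 1 it was 1.81 (adjusted p = 0.027). By fraction, Camk2n1 was higher with the odor by 2.68 in GFP+ cells (adjusted p = 0.00223), and its difference of 1.24 in GFP- cells did not pass (limma adjusted p = 0.600).

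Pcdh10, a delta-protocadherin adhesion gene, changed in both fractions, and it was the 1 probe set called higher with the odor in GFP- cells (background 0.0045%). Its level averaged 13.71 in odor GFP+ cells and 9.72 in vehicle GFP+ cells, and 11.86 in odor GFP- cells and 8.58 in vehicle GFP- cells. The differences of 3.99 (limma adjusted p = 0.0102) and 3.28 (limma adjusted p = 0.000952) left a gain of 0.71 ± 0.32 (adjusted p = 0.906). Sema7a, an axon guidance gene, rose by 1.39 in GFP+ cells (limma adjusted p = 0.0212), its difference of 0.97 in GFP- cells did not pass (adjusted p = 0.0618), and the gain was 0.42 ± 0.16 (adjusted p = 0.859). Kirrel2, an adhesion gene of sensory axons, had a gain of 0.20.

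Among the 14 slow activity-dependent genes listed, 0 passed in limma, and the median gain was 0.07. At an unadjusted limma p under 0.05, 2 were higher and 1 lower, beside 3.47% and 2.03% of all tested probe sets. The lower one was Bdnf, whose mean level of 4.298 lay below the negative control median of 6.17. Of 31 immediate-early probe sets 0 passed, with 0 higher and 1 lower unadjusted, beside the same shares over all tested. Their median was -0.06, and the range ran from Ier3 at -0.87 to Fosb at 0.45. Fos was depleted from GFP+ cells in every pool, with -4.32, -5.89, -4.80 and -5.22 in odor pools and -4.27, -5.64, -4.45 and -4.21 in vehicle pools. The groups overlapped and its gain was -0.41.

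The makeup of the fractions was read from marker lists. None of these lists had a member past the threshold in limma. The 20 mature neuron genes had a median gain of 0.01, with 0 at an unadjusted p under 0.05. Over all tested probe sets 3.47% were higher and 2.03% lower at that p. The olfactory transduction list reaches beyond the cascade itself, with members such as Omp, Rtp1 and Cnep1r1. Its 24 genes had a median of -0.01, from Cnep1r1 at -0.33 to Cngb1, a subunit of the transduction channel, at 0.31. The 17 immature neuron genes had a median of 0.13 with Gng8 highest at 0.59, and the 16 globose basal and cycling genes had a median of 0.09. Gap43, a growth cone gene, had a gain of 0.39 and the proliferation gene Mki67 of -0.00.

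Neutrophil and macrophage markers were on the GFP- side with both stimuli. The 13 neutrophil probe sets had pool medians of -8.34 to -6.57 in odor pools and -8.26 to -7.18 in vehicle pools, and the 15 macrophage probe sets -4.20 to -3.11 in odor pools and -4.35 to -2.71 in vehicle pools. Their median gains were 0.07 and -0.16. Sustentacular cell genes had pool medians of -0.78 to 0.07 in odor pools and -0.66 to 0.09 in vehicle pools and a median gain of -0.08 over 13 probe sets, and Cyp2g1, a cytochrome of the supporting cells, had -0.09. The largest gain among these was that of Ly6c2, a myeloid surface gene, with 0.79 ± 0.38 (limma adjusted p = 0.909). Its GFP- levels averaged 14.73 with either stimulus. In GFP+ cells it averaged 6.34 with the odor and 5.545 with vehicle, below the mean negative control medians of 6.36 and 6.55 there. Among 16 thiol and sulfur metabolism probe sets the median gain was 0.08, from Cth at -0.33 to Cbs at 0.44, with 0 at an unadjusted p under 0.05. The 15 trace amine receptors, the other receptor class of these neurons, had a median of 0.03 and 0 at an unadjusted p under 0.05. For both of these lists the shares over all tested probe sets were 3.47% higher and 2.03% lower.

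**Figure D5:**
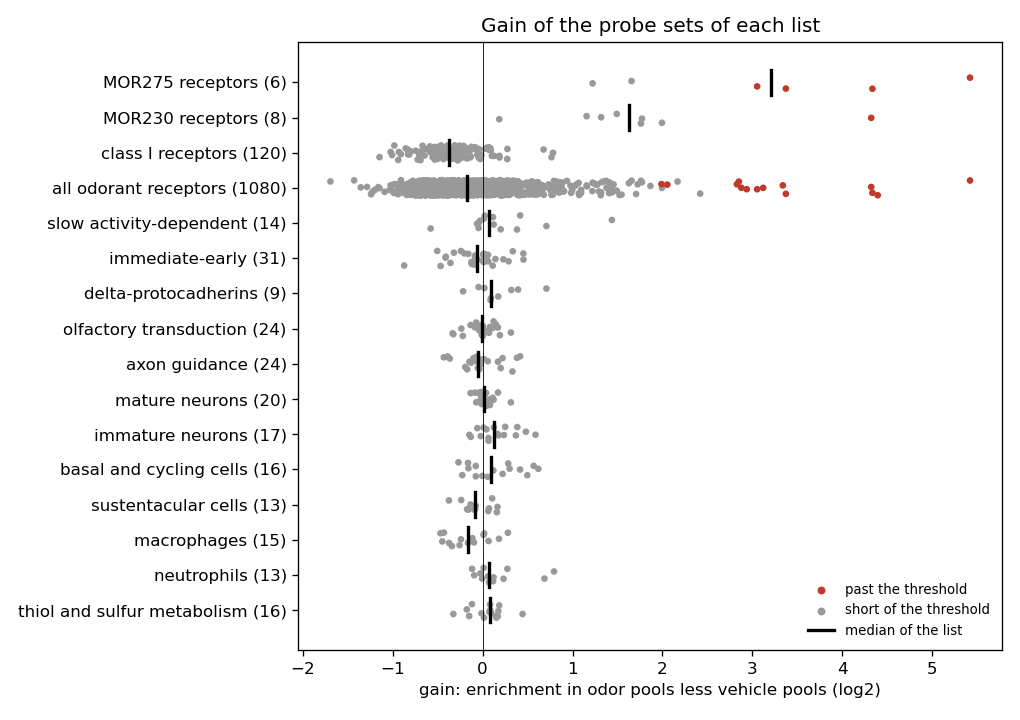
The gain (x axis, log2) of each probe set is drawn by list (y axis, number of probe sets in brackets), with those past the threshold in red and a black bar at each list's median. The MOR275 and MOR230 receptors sit to the right, with medians of 3.21 and 1.63, while the medians of the plotted lists that hold no odorant receptors lie between -0.16 and 0.13.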

How the data were processed

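RNA of 16 sorted samples was hybridised to Clariom S mouse arrays. Values were deposited on the log2 scale and come from Affymetrix Expression Console, per the submitters' processing notes. Its version and its ways of summarizing and normalizing probes are not named in the labels or file header. No further scaling or filter was applied. Each GFP- array was subtracted from the GFP+ array of its pool, and the 8 differences were fitted by stimulus with limma 3.58.1 in R 4.3.3 (empirical Bayes, 10.72 total degrees of freedom). Tests were two-sided, with Benjamini-Hochberg adjustment over 22206 probe sets and a threshold of 0.05. Odor and vehicle were also fitted in each fraction alone. Errors after ± are SE of the gain unless SD is named. The fit was tested on simulated data. The number of arrays limits the precision.

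Alternatives were other scalings, a filter on dim probe sets, other variance models and array weights, a block on the replicate number or no pairing within pools, and leaving out each pool. GFP+ and GFP- arrays of a pool come from the same mice, and their deviations from group means correlated with r of 0.0119 to 0.224.

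Of the probe sets, 19572 carry 1 gene symbol and 2634 none in the platform annotation. Families, gene order and the 921 receptor promoter windows are from RefSeq (GRCm38.p6); MOR names come from its synonyms. Windows were aligned with Biopython 1.88. A comparison of receptor proteins was not run. Genes were named as all past the threshold, the 10 next by p, the 5 most negative by p, a set named in any case (such as S100a5, Omp and Fos), receptors with a known ligand, family members and neighbours of the called receptors, and the highest and lowest of a list. Olfr1201 is the lowest of its family. Of the 5 most negative, 1 is not reported here. The lists not described in the report had 0 members past the threshold, and the medians of their gains were -0.06 for receptor trafficking and choice, -0.05 for axon guidance, 0.09 for delta-protocadherins, 0.05 for horizontal basal cells, -0.11 for Bowman's gland and respiratory cells, -0.07 for microvillar and chemosensory cells, 0.11 for lymphocytes, 0.34 for erythroid cells, -0.20 for endothelium and stroma, 0.18 for ensheathing glia, 0.13 for guanylate cyclase D neurons, 0.02 for xenobiotic and oxidative defence, -0.08 for the unfolded protein response, 0.13 and 0.08 for the V1R and V2R vomeronasal receptors, -0.20 for formyl peptide receptors, 0.04 for cytosolic ribosomal proteins and 0.03 for the respiratory chain. The members and lists were chosen with earlier results of these data known.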

Additional observations from a re-analysis of the deposited data

Results flagged for a closer look

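The gain of enrichment is itself a difference between the stimuli in the GFP+ minus GFP- contrast, and it passed the limma test for 14 receptors. The gains were 5.42 for Olfr328, 4.40 for Olfr195, 4.34 for Olfr224, 4.32 for Olfr1183, 3.37 for Olfr330, 3.34 for Olfr1193, 3.12 for Olfr1395, 3.05 for Olfr325, 2.94 for Olfr1279, 2.88 for Olfr286, 2.85 for Olfr1284, 2.83 for Olfr1212, 2.05 for Olfr1396 and 1.99 for Olfr175 (log2).

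In 6 of 126 groups of 4 values (4.76%) a single sample lay far from the other three by Dixon's criterion, and chance alone gives about 1 in 20. In vehicle pool 3, Olfr1212 had an enrichment of -0.67, Olfr1186 of -1.41 and Ly6c2 of -8.11, and in vehicle pool 2 Fos had -5.64. The median receptor signal was 9.52 on the GFP+ array of odor pool 3, below the other odor GFP+ arrays. The negative control median was 7.28 on the GFP+ array of vehicle pool 2, above the other vehicle GFP+ arrays.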

How the results depend on the processing

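The count of probe sets that gained enrichment was 14 as reported, 15 with array medians set equal, with quantile normalization or with array weights, 19 with receptor medians set equal, 13 without dim probe sets (13923 kept) or with a trend and robust variance, and 10 to 12 with a pool left out. The count that lost it was 0 in every fit. Odor and vehicle pools with the same replicate number had r of 0.112, 0.0983, -0.0515 and 0.159 between their deviations, so the number was not taken to pair them. The replicate block on that number gave 15, and no replicate block within pools gave 14. Of the 14 receptors, 10 passed in every alternative that gave them a value (Olfr1279 had none among the bright probe sets), while Olfr328, Olfr224, Olfr1396 and Olfr175 did not. Olfr175 had an adjusted p of 0.199 with a trend and robust variance, 0.0794 with no replicate block and 0.0555 with the replicate block.

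In GFP+ cells alone the count of 6 higher became 12 with a trend and robust variance and 11 with array weights, and 3 to 7 with a pool left out (3 without odor pool 1). In GFP- cells the count of 1 higher became 2 with quantile normalization, without dim probe sets, with a trend and robust variance and with array weights, and was 1 to 2 with a pool left out (2 without odor pool 2 or 3). The count of 12 lower was 6 to 14 with a pool left out, at 6, 7 and 6 without vehicle pools 1, 2 and 3.

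Gains near 0 changed sign. With receptor medians set equal, which shifts the median gain by 0.17, Mki67 had 0.16, Omp 0.15 and Cyp2g1 0.0745, and with array weights Cyp2g1 had 0.044. With a pool left out the gain ran from -0.12 to 0.43 for Kirrel2, -0.30 to 0.20 for Mki67, -0.078 to 0.027 for Omp, -0.29 to 0.14 for Cyp2g1 and -0.39 to 0.0709 for Olfr160. The cause was not tested. Signal near the negative control level limits the values of Olfr1279, of Olfr1394, and of Olfr224, Olfr1183 and Olfr1284 in odor GFP- cells. Other named genes with group means near or below that level include Slc52a3, Tulp1, Olfr331, Olfr1186 and Olfr312, and Ly6c2 in GFP+ cells.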
